A study of Mus musculus with 4 samples.

Results

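The cytosolic ribosomal protein genes were examined in samples described as smooth muscle cells of the mouse aorta. They came from wild-type mice and from mice labelled as a smooth muscle knockout of YAP and TAZ. These transcriptional co-activators are the effectors of the Hippo pathway. The genes were the rows of the deposited table that carry the protein-coding biotype and a name of the form Rpl, Rps or Rplp followed by a number, with the Rps6k kinases left out. This gave 85 of the 39179 genes in the table, of which 48 carry names of the large subunit, 34 of the small subunit and 3 of the stalk. The choice used names only and no measured value. Names were checked against identifiers in the GENCODE M21 annotation of the mouse build GRCm38, where 2 rows carried another name and 3 are typed as processed pseudogenes. The row named Rpl24 has the identifier of Zbtb11, a zinc finger gene, so by this annotation it does not measure a ribosomal protein. It stays in the counts because the choice goes by name. The row named Rps4y2 is Rps4l, annotated as a transcribed processed pseudogene, and Rps3a2 and Rps3a3 are annotated as processed pseudogenes.

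RNA was sequenced from 4 libraries, all taken 18 days after tamoxifen injection. They are described as primary aortic smooth muscle cells, while their titles name the tissue only as aorta. The 2 knockout libraries came from mice labelled Sm-Yap/Taz-KO, in which Yap1 and Wwtr1 (the gene of TAZ) were targeted in smooth muscle, and the 2 control libraries from wild-type mice that the labels also place after tamoxifen. The driver of the recombinase, the strain, sex and age, and the number of animals behind a library were not given in the sources used here, and the p-values reflect only the spread among these libraries, which may be technical. Normalized read counts summed to between 13279332 and 14519178 per library, and the reads behind them were estimated at 11800000 to 16800000, with the knockout libraries the shallower. Yap1 had 947 and 962 normalized counts in the knockout libraries, against 1966 and 1877 in the wild type (log2 fold change -1.01, SE 0.10, limma adjusted p = 0.00802). Wwtr1 had 2848 and 2466 against 3423 and 4016, and its difference missed the threshold (-0.48, SE 0.13, limma adjusted p = 0.0553). Both mRNAs were therefore still present in the knockout libraries, with Yap1 lowered. Acta2, smooth muscle actin, was abundant in every library but fell from 157904 and 150117 in the wild type to 41201 and 33544 in the knockout (-2.05, SE 0.16, limma adjusted p = 0.00534). Markers of other cell types were present too. In the knockout, summed fibroblast markers (412670 and 424130) exceeded summed smooth muscle markers (211627 and 161705). In the wild type the fibroblast sums were the lower (127917 and 269747, against 513556 and 483187).

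Ribosomal proteins assemble with ribosomal RNA into the small subunit, which decodes the mRNA, and the large subunit, which forms peptide bonds. Cells make most of these proteins in fixed proportions, and surplus copies are degraded. Their mRNAs typically begin with a run of pyrimidines, the 5′ terminal oligopyrimidine or TOP motif, through which the kinase mTOR and the RNA-binding protein LARP1 control their translation. The Hippo pathway is known as a regulator of organ size and cell growth, and the comparison asks whether the mRNAs of the ribosome differ between cells of this knockout and of wild-type mice.

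Few differences between the knockout and the wild type were found in the ribosomal protein mRNAs. Of the 85 genes, 79 had a mean normalized count of at least 10 over the 4 libraries and were tested, and none of them passed this filter in only 1 group. Among the 79, only Rplp0, which forms the base of the stalk, was higher in the knockout at a limma adjusted p under 0.05, and none was lower. Over all 15058 genes tested, 16.3% were called at that threshold, 9.58% higher and 6.7% lower. The median log2 fold change of the 79 genes (knockout against wild type, of the normalized count + 1) was 0.03, beside -0.02 over all genes. It was 0.04 for the 44 tested genes of the large subunit, 0.00 for the 32 of the small subunit and 0.34 for the 3 of the stalk. In a bulk sample, a change in the number of cells of a type and a change in RNA per cell cannot be told apart.

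These differences were small as well as mostly uncalled. Single genes ranged from -0.50 for Rps27l to 0.43 for Rpl22l1, so all 79 lay within 1.5-fold of equality, as did 66.1% of all genes tested. The log2 fold changes of the 79 had an SD of 0.20, against 0.97 over all genes. At a mean of at least 500 the SDs were 0.16 and 0.66. Small differences were also common in related lists. Within 1.5-fold lay 97.9% of 48 ribosome biogenesis genes (SD 0.25) and 93.3% of 30 initiation factors (SD 0.28). The share was 90.7% for 75 mitochondrial ribosomal protein genes (SD 0.32) and 88.9% for 9 elongation factors (SD 0.41). The 95% interval of the difference lay within 2-fold in either direction for 72 of the 79 genes (91.1%), against 51.6% of all genes, and within 1.5-fold for 44 of them. The other 7, Rpl22l1, Rpl29, Rpl37, Rps4y2, Rps26, Rps27l and Rps28, had intervals that reach past 2-fold, and for these a larger difference could not be told from none. Narrow intervals were not particular to the family. They lay within 2-fold for 100% of 30 initiation factors and 89.6% of 48 ribosome biogenesis genes. The share was 70.7% of 75 mitochondrial ribosomal protein genes and 66.7% of 9 elongation factors. At an unadjusted limma p under 0.05 there were 3 of the 79 genes, Rplp0, Rpl17 and Rpl12, where the share over all genes was 32.5%. Knockout and wild-type libraries did not overlap for 27 of the 79 genes (34.2%; 14 higher and 13 lower), against 62.8% of all genes. Without the rows named Rpl24 and Rps4y2, 77 genes were tested, with the same single call and a median of 0.03.

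**Figure D1:**
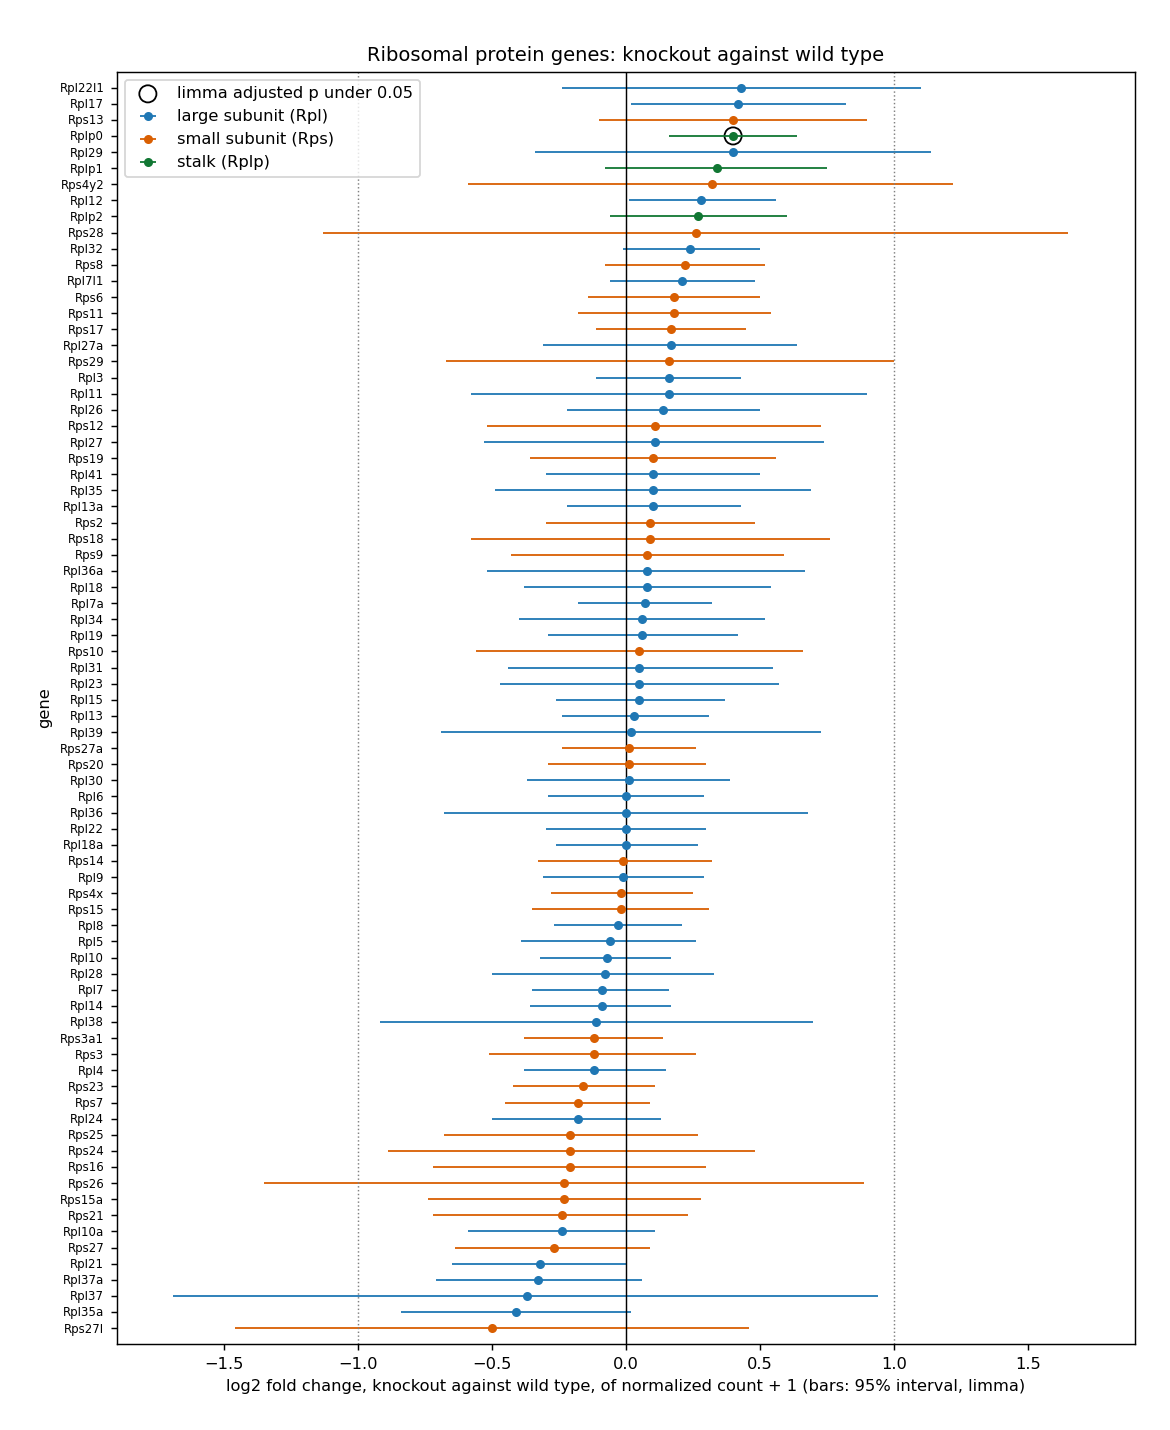
Log2 fold change (x axis, knockout against wild type, of the normalized count + 1) of 78 of the 79 tested ribosomal protein genes (y axis), with limma's 95% interval as a bar and dotted lines at 2-fold. The 78 points lie between -0.50 and 0.43, and the circled point, Rplp0, has an adjusted p under 0.05; the row labelled Rpl24 has the identifier of Zbtb11.

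**Figure D2:**
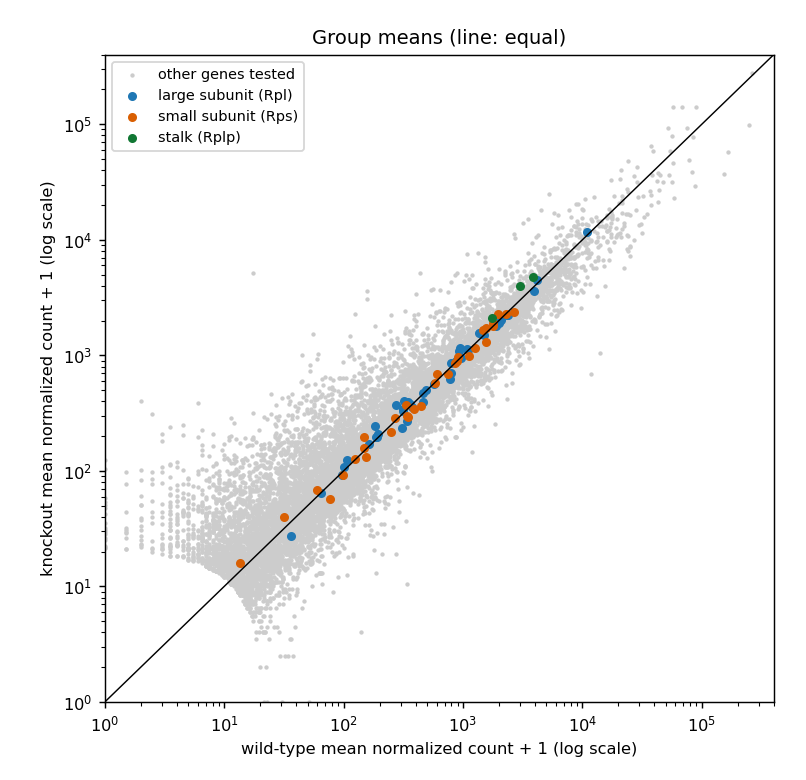
Mean normalized count + 1 in the wild-type (x axis) and knockout (y axis) libraries on log scales, with each tested gene as a grey point and the ribosomal protein genes in colour. The coloured points follow the line of equal means over their whole range while grey points spread to both sides.

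The single call depended on the settings and on each library. Rplp0 kept an adjusted p under 0.05 when the values were rescaled by TMM factors (0.0382), to the same total (0.0193) or by quantile normalization (0.018). It missed the threshold without the filter on low counts (0.111) and without the intensity trend of the variance (0.166), 2 settings under which limma called no gene at all, with 5472 and 4274 genes at an unadjusted p under 0.05. Leaving out any library also ended the call, in fits with 1 library in a group that lost calls over the whole table as well. The log2 fold change of Rplp0 stayed between 0.36 and 0.45 in these fits.

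The sequences around the start sites show a pyrimidine run in many of these genes. RefSeq promoter entries on GRCm38.p6 were found by symbol for 61 of the genes, and 30 bases were read on the gene's strand, 15 before and 15 after the annotated start. A run of at least 8 bases that are all C or T lay in this window in 27 of the 61 genes (44.3%), against 13.9% of 27022 genes with an entry and 13.4% of 67 genes of mitochondrial ribosomal proteins, which are made in the cytosol but serve another ribosome. On the opposite strand such a run was present in 4.92% of the 61 genes and in 15.3% of all genes. Where a gene had several entries, that with the longest run was taken, for all genes alike. The windows of 9 genes are shown because the comparison turns on them or because they show how long or short the run is, in lower case with the longest run of C or T in capitals.
Rpl27a, chr7:109519180-109519209, plus strand: gacttcgtgagCTCCTCCCTTTTCCCTTTC
Rpl35, chr2:39005117-39005146, minus strand: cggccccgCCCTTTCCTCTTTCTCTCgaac
Rps6, chr4:86857353-86857382, minus strand: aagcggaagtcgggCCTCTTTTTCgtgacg
Rplp2, chr7:141447636-141447665, plus strand: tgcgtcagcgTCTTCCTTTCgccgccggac
Rpl22l1, chr3:28805493-28805522, plus strand: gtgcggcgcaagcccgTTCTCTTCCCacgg
Rpl35a, chr16:33056467-33056496, plus strand: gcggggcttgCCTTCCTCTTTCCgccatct
Rps27l, chr9:66946071-66946100, plus strand: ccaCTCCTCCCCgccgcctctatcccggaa
Rpl12, chr2:32961697-32961726, plus strand: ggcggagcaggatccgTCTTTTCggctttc
Rplp0, chr5:115559452-115559481, plus strand: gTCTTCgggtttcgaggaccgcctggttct
The run has 19 bases in Rpl27a and 18 in Rpl35, 10 in Rps6, Rplp2 and Rpl22l1, 13 in Rpl35a, 9 in Rps27l, 7 in Rpl12 and 5 in Rplp0. The gene with the single call has one of the short runs. Both the highest gene, Rpl22l1, and the lowest, Rps27l, have a run past the minimum, but neither was called. A relation between the run and the log2 fold change was not tested, and single genes cannot show one. The tested genes with a run of at least 8 had a median log2 fold change of 0.05 (n = 27, from -0.50 to 0.43) and those with a shorter one 0.00 (n = 31, from -0.37 to 0.40). A run in this window is a match of letters at an annotated start and does not show where transcription began in these cells.

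The stalk genes had the highest median log2 fold change of the 3 name classes. The stalk is the flexible arm of the large subunit, made of uL10 (Rplp0) carrying copies of P1 (Rplp1) and P2 (Rplp2), and it recruits and activates the elongation factors. Rplp0 (ENSMUSG00000067274, chromosome 5, 115559467 to 115563727, plus strand, GRCm38) had 4083 and 3899 normalized counts in the knockout libraries, against 2927 and 3113 in the wild type. Both knockout values lay well above both wild-type values, with means of 3991 ± 130 (SD, n = 2) and 3020 ± 132 (SD, n = 2). The log2 fold change was 0.40 (SE 0.10, 95% interval 0.16 to 0.64, limma adjusted p = 0.0441), a fold of 1.32. Among the genes with a mean of at least 10 in each group, 1261 of 14123 were called higher in the knockout libraries. These included 15 of 15 macrophage markers and 11 of 16 cell cycle genes. They also included 9 of 12 adipocyte, 7 of 12 endothelial and 2 of 12 fibroblast markers, while 9 of 12 smooth muscle markers were called lower. The part of these shifts in the level of Rplp0 was not tested.

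Rplp1 (chromosome 9, 61913284 to 61914542, minus strand) had 5194 and 4407 against 3276 and 4383, so that knockout replicate 2 and wild-type replicate 2 were nearly equal. Its difference of 0.34 on the log2 scale (SE 0.17, limma adjusted p = 0.228) did not pass and fell to 0.13 without wild-type replicate 1. Rplp2 (chromosome 7, 141447370 to 141451585, plus strand) had 1951 and 2265 against 1601 and 1899, with the lower knockout value just above the higher wild-type value. The difference was 0.27 on the log2 scale (SE 0.13, limma adjusted p = 0.228). Rpl12, whose protein uL11 sits with Rplp0 at the stalk base, was named after its values were seen. It had 1139 and 1170 against 900 and 1001, which is 0.28 on the log2 scale (SE 0.11, limma adjusted p = 0.147). In all 3 stalk genes the knockout libraries lay above the wild-type libraries, which held for 30.7% of all genes tested. The same was true of Rpl12, but it adds nothing to this count, because its values were known when it was named. Of the 4 genes, Rplp0 alone passed the threshold.

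**Figure D3:**
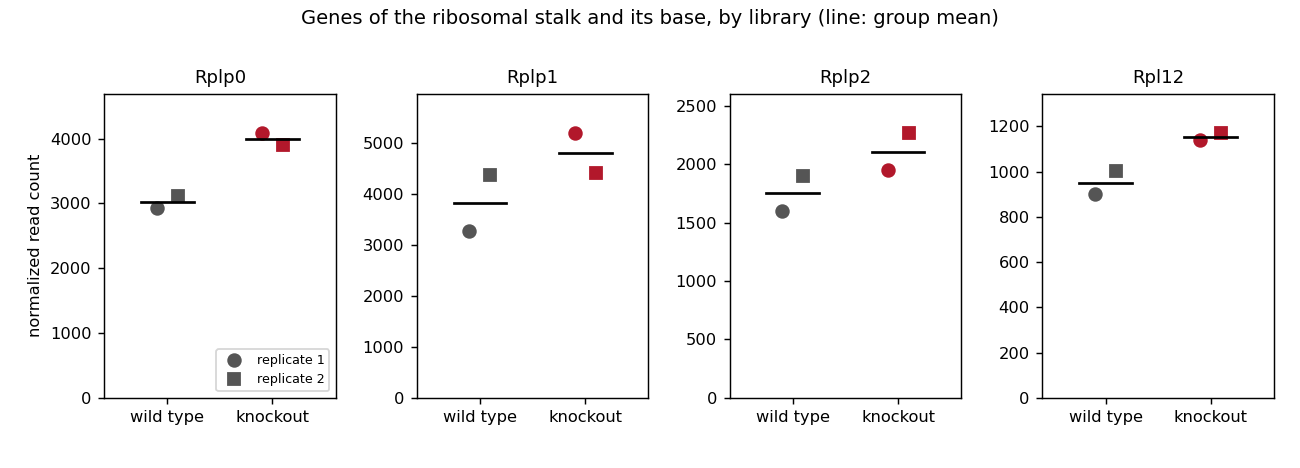
Normalized read counts (y axis, from 0) of Rplp0, Rplp1, Rplp2 and Rpl12 in each library, with circles for replicate 1, squares for replicate 2 and a line at the group mean. The knockout points lie above the wild-type points in each panel, but for Rplp1 the gap between knockout replicate 2 (4407) and wild-type replicate 2 (4383) is small.

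In the large subunit outside the stalk no gene of 44 passed the threshold. At an unadjusted limma p under 0.05 there were 2, beside 32.5% of all genes. The log2 fold changes of the 44 ran from -0.41 to 0.43, 29 above 0 and 15 below. The groups did not overlap for 6 genes with the knockout higher and 7 with it lower (29.5%, beside 62.8% of all genes). Rpl17, which lines the exit of the peptide tunnel and was named after its values were seen, had 375 and 360 normalized counts in the knockout, against 249 and 303 in the wild type. Its log2 fold change was 0.42 (SE 0.16, limma adjusted p = 0.139). Rpl35a had 257 and 206 against 314 and 298, the lowest log2 fold change of the subunit at -0.41 (SE 0.18, limma adjusted p = 0.172). The knockout libraries were all above the wild type for Rpl17 and all below it for Rpl35a, a gene mutated in some families with Diamond-Blackfan anaemia.

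Rpl5 and Rpl11 together with 5S ribosomal RNA form the particle that binds Mdm2 and restrains p53 breakdown when ribosome assembly fails. Rpl5 had 2435 and 2053 normalized counts against 2176 and 2507, and the groups overlapped (log2 fold change -0.06, 95% interval -0.39 to 0.26). Rpl11 had 91 and 153 against 104 and 107, with the knockout libraries on either side of the wild type (0.16, -0.58 to 0.90). Rpl10, an X-linked gene whose protein completes the large subunit late in its assembly, had 1846 and 1966 against 2026 and 1981. Both knockout values were lower (-0.07, -0.32 to 0.17), but the log2 fold change was 0.01 after rescaling to the same total. Rpl4 had 3390 and 3807 against 4006 and 3789, and the knockout spread covered the lower wild-type value (-0.12, -0.38 to 0.15). Rpl26, at the tunnel exit, had 4595 and 4443 against 3576 and 4685, and wild-type replicate 1 alone stood low (0.14, -0.22 to 0.50).

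In the small subunit none of the 32 genes tested passed, and 0 had an unadjusted limma p under 0.05, beside 32.5% of all genes. In 16 of the 32 the log2 fold change was above 0 and in 16 below. The groups did not overlap for 5 with the knockout higher and 6 with it lower (34.4%, beside 62.8% of all genes). Rps13 had the highest log2 fold change of the subunit, 0.40 (SE 0.20, limma adjusted p = 0.233), from 173 and 219 normalized counts against 145 and 149. The knockout values lay above the wild type and also further apart than it. Rps6, whose protein is the phosphorylated target of the S6 kinases below mTOR, had 1771 and 1566 against 1347 and 1594, and knockout replicate 2 fell below wild-type replicate 2 (0.18, -0.14 to 0.50).

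Rps27a, which encodes ubiquitin fused to a ribosomal protein, had 1858 and 1723 against 1789 and 1766, and the wild-type values lay inside the knockout range (0.01, -0.24 to 0.26). Rps4x, an X-linked gene, had 2350 and 2176 against 2185 and 2393, which is the same range in both groups (-0.02, -0.28 to 0.25). Across the 18 listed genes linked to Diamond-Blackfan anaemia, a failure of red cell production from lowered ribosome supply, none passed and the median was 0.07. At an unadjusted limma p under 0.05 there were 0 of them, beside 32.5% of all genes.

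Of the paralogs that can replace a core protein, those with tissue-restricted use were near or at 0. Rpl3l, the paralog of heart and skeletal muscle, had 0 and 1 normalized counts in the knockout, against 1 and 2 in the wild type, while its partner Rpl3 had 1595 and 1544 against 1326 and 1482. Rpl10l and Rpl39l, known from the testis, were listed at 0 in all 4 libraries. The partner Rpl39 had 127 and 214 against 151 and 175, and its groups overlapped. In these pairs the ubiquitous form carried nearly all of the counts.

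The paralogs that are used more widely were present in both groups. Rpl22l1, which can take the place of Rpl22, had 281 and 205 against 144 and 220, so that knockout replicate 2 fell below wild-type replicate 2. Its difference of 0.43 on the log2 scale (SE 0.27, limma adjusted p = 0.336) was the highest of the family and fell to 0.13 without wild-type replicate 1. Rpl22 itself had 1519 and 1455 against 1364 and 1617 (0.00, -0.30 to 0.30). Rps27l, a target of p53, had 38 and 75 against 81 and 71, the lowest log2 fold change of the family at -0.50 (SE 0.39, limma adjusted p = 0.436). Without knockout replicate 1 the log2 fold change was -0.02. Its partner Rps27 had 361 and 368 against 405 and 480 (-0.27, limma adjusted p = 0.261).

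Rpl7l1, which acts in assembly of the large subunit, had 1524 and 1612 against 1291 and 1422, with both knockout values higher (0.21, SE 0.11, limma adjusted p = 0.243). Its partner Rpl7 had 2204 and 2246 against 2249 and 2500, with both knockout values lower (-0.09, SE 0.10, limma adjusted p = 0.596). The Rps4l row had 43 and 34 against 30 and 31 (0.32, -0.59 to 1.22). None of the 4 tested paralogs and none of the 7 partners passed the threshold. The other 3 untested rows were the processed pseudogenes Rps3a2, listed at 0 in all 4 libraries, and Rps3a3, with 14 and 2 against 0 and 4, and the gene Rpl23a, with 5 and 10 against 4 and 8. Rpl23a encodes a core protein of the large subunit, and 85.7% of its 50-base stretches also occur in other genes.

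The size of the group difference was set beside those between replicates. For 62 of the 79 genes (78.5%) it was below at least 1 of the 2 replicate differences in log2 value. This held for 48.3% of all genes tested. Either replicate difference sufficed, and means vary less than single libraries. The share is therefore high even where the groups do not differ, and no conclusion is drawn from it. Knockout replicate 2 minus knockout replicate 1 had an SD of 0.35 over the 79 genes and wild-type replicate 2 minus replicate 1 an SD of 0.25, while the group difference, a mean over more libraries, had 0.20. The 41 genes with a mean of at least 500 had SDs of 0.19, 0.13 and 0.16 for these differences, and the 38 genes below had 0.43, 0.34 and 0.24. The lowest value of a gene was in knockout replicate 1 for 32 genes and in wild-type replicate 1 for 31, but in wild-type replicate 2 for 3. The median deviation of the 79 genes from their own mean over the libraries was -0.01 and 0.03 in the knockout libraries, against -0.08 and 0.07 in the wild type, on the log2 scale. By this median, the wild-type libraries were farther from each other than the group means. The mean over the 75 tested members other than the paralogs set the libraries apart in both groups. It was -0.063 and 0.077 in the knockout, against -0.074 and 0.060 in the wild type.

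**Figure D4:**
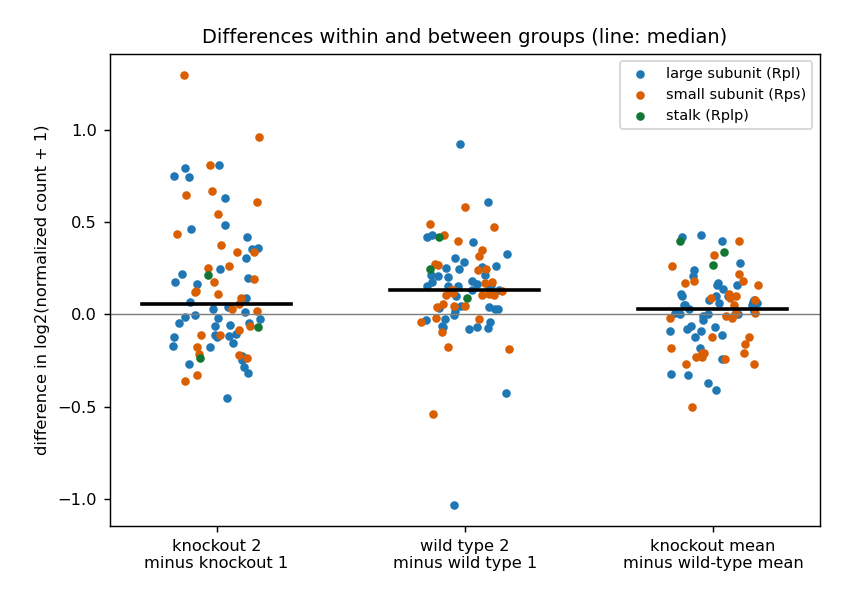
Difference in log2(normalized count + 1) (y axis) of each tested ribosomal protein gene between the knockout replicates, between the wild-type replicates and between the group means (x axis), with a line at the median. The group differences (SD 0.20) are narrower than those between knockout replicates (SD 0.35), and the stalk genes lie on the upper side of the group differences.

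Summed over all 85 genes, ribosomal protein mRNA made up a small share of the normalized counts. The share was 0.629% and 0.656% in the knockout, against 0.556% and 0.607% in the wild type. Both knockout shares were above both wild-type shares, by 0.061 percentage points between the means of 0.643 ± 0.0188% and 0.581 ± 0.0359% (SD, n = 2 each), a ratio of 1.1. An exact two-sided permutation test over the libraries gave p = 0.333, the smallest that 2 against 2 can give. The stalk genes contributed 0.081% and 0.0796% against 0.0548% and 0.0647%, a ratio of 1.34, the large subunit had a ratio of 1.09 and the small subunit one of 1.06. The sums themselves were 87219 and 87094 normalized counts against 79164 and 88115, so the groups overlapped before division by the library totals, which were lower in the knockout.

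Levels differed far more between genes than between groups. Per kilobase of exon in the annotation, the mean normalized count of the 79 genes had a median of 242, against 59.4 over 14911 tested genes with a length. It ran from 8 for Rps28 to 8647 for Rplp1, a 1081-fold range. Below Rplp1 came Rpl13a at 5350, Rpl26 at 2995 and Rplp0 at 2113 per kilobase, and above Rps28 came Rpl37 at 18.4 and Rps24 at 37.2, leaving aside the Rps4l row. Rpl13a had 12420 and 10983 normalized counts against 9958 and 11876, the highest count of the family, with overlapping groups (0.10, -0.22 to 0.43). Annotated exon length includes every isoform, so a level per kilobase understates a gene whose short isoform dominates.

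Nearly all these genes share sequence with other genes. Ribosomal protein genes have many processed pseudogenes, and a read that fits several places may be dropped or shared by a counter, whose setting was not given in the sources used here; its part in these levels was not tested. Of the 79 tested genes, 77 shared at least 1 stretch of 50 bases with an annotated pseudogene, with a median of 8 pseudogenes and up to 120 for Rpl7a. The median share of a gene's 50-base stretches that another gene also holds was 35.9%, and it reached 95.1% in Rpl35. Rpl5 shared 85.4% and Rps6 84.6%, at mean normalized counts of 2293 and 1570. Over the 79 genes, the level per kilobase had a Spearman correlation of 0.24 with this share, a description over genes of the same libraries. The 26 genes with at least 50% of their stretches shared had a median log2 fold change of 0.07 and the other 53 one of 0.01.

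Other transcripts lie within these genes. A small nucleolar RNA gene, whose product guides the modification of ribosomal RNA, lay inside 28 of the 79 genes, and 55 lay inside the 85 genes together. Rpl4 holds 5 and Rpl13a 4. The 28 genes had a median log2 fold change of 0.04 and a median level of 316 per kilobase, and the other 51 had 0.01 and 199. Exons on the opposite strand covered at least 20% of the exon length of 4 tested genes, Rpl35 (66.2%), Rpl31 (25.3%), Rpl5 (24.3%) and Rpl30 (20.4%), and 59.7% of that of Rpl23a. The kit marks strand, but the strand setting of the counting is not given, so reads of overlapping genes cannot be told apart for these. Rpl13a and Rps10 shared 29.4% and 20.6% of their exon length with another gene on the same strand.

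**Figure D5:**
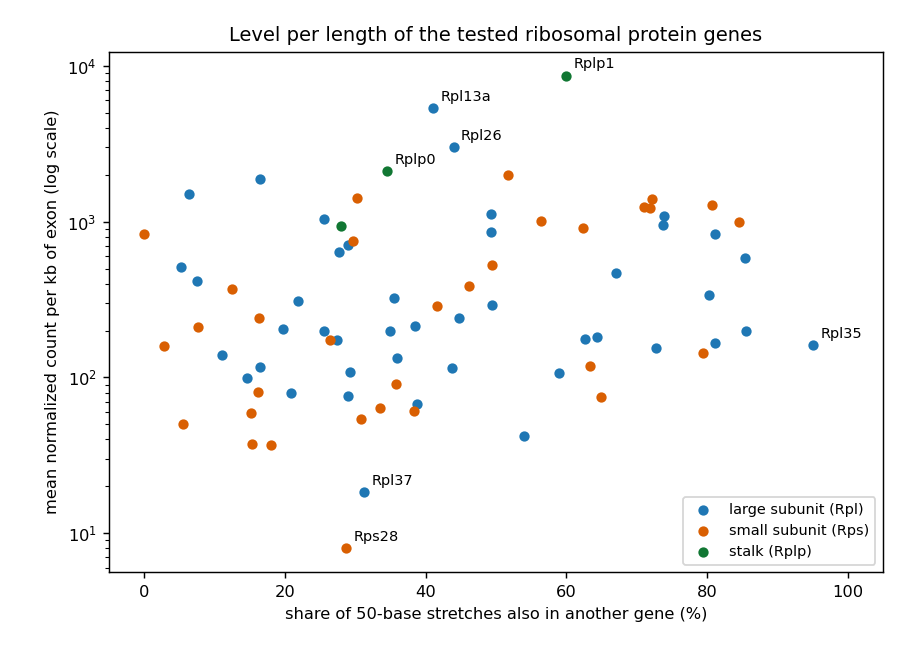
Mean normalized count per kilobase of exon (y axis, log scale) of each tested ribosomal protein gene against the share of its 50-base stretches that occur in another annotated gene (x axis, in percent). Levels from 8 (Rps28) to 8647 (Rplp1) occur with little order along the shared fraction, with the most shared gene, Rpl35, at 161.

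Of the 5 ribosomal proteins outside the name pattern, none passed, and their median log2 fold change was 0.25. Rpsa had 3626 and 4043 normalized counts against 3175 and 3287 (0.25, limma adjusted p = 0.169), and Fau, a small-subunit protein fused to a ubiquitin-like protein, had 1338 and 1310 against 1168 and 1198 (0.16, limma adjusted p = 0.324). Rack1, the scaffold on the head of the small subunit, had 1819 and 2044 against 1985 and 1861, with overlapping groups. Of 214 annotated ribosomal protein pseudogenes by name, 126 were listed at 0 in all libraries and 9 were tested, of which none passed. All 75 tested mitochondrial ribosomal protein genes missed the threshold too, with a median of -0.09. At an unadjusted limma p under 0.05 there were 2 of them, beside 32.5% of all genes. 

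Other genes of translation and ribosome production were taken from 9 lists outside the family, 228 genes in all. Of the 223 tested, 5 were higher and 6 lower, beside 9.58% and 6.7% of all genes, and the median log2 fold change was -0.04. Of 30 initiation factors, Eif4a1, the helicase that unwinds the mRNA leader, rose from 1524 and 1471 to 2280 and 2498 normalized counts (0.67, SE 0.10, limma adjusted p = 0.0148). Pabpc1, the poly(A)-binding protein and itself the product of a TOP mRNA, rose from 5030 and 5729 to 7910 and 7897 (0.56, SE 0.11, limma adjusted p = 0.0247). Eif1ax, a factor of start codon selection, fell from 2227 and 2133 to 1501 and 1283 (-0.65, SE 0.12, limma adjusted p = 0.0208). For all 3, the knockout libraries lay on one side of the wild-type libraries. This held for 63.3% of the 30 initiation factors and 62.8% of all genes tested. The 3 genes were named by their p, so it adds nothing to the calls.

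Among 9 elongation factors, Eef2k, the kinase that inactivates eEF2, was lower (1144 and 1041 against 2682 and 1662, limma adjusted p = 0.0407), and the median of the list was -0.04. Eef1a1, the most abundant of them, had 21093 and 20383 against 21906 and 21173 (-0.05, limma adjusted p = 0.772). Of 17 other genes with a TOP mRNA, 1 was higher, Pabpc1, and 1 lower, Vim, an intermediate filament protein of mesenchymal cells, with 50212 and 47545 against 77210 and 79093. Their median was -0.12, with 6 genes above 0 and 11 below.

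In ribosome assembly, 1 of 48 genes passed, Gnl3 or nucleostemin, with 466 and 554 against 331 and 327 (0.63, SE 0.15, limma adjusted p = 0.0400). The median of this list was 0.11, 33 of its genes lay above 0 and 15 below, and for 20 the knockout libraries lay above and for 7 below the wild type (56.2% in all, beside 62.8% of all genes, 30.7% above and 32.1% below). Of 15 genes of RNA polymerase I, which transcribes ribosomal RNA, Taf1d was higher (720 and 836 against 457 and 483) and Taf1a, a subunit of the same promoter factor, lower (166 and 130 against 261 and 267). Snhg18, a host gene of small nucleolar RNAs listed as 0610007N19Rik, was the only one of 13 such genes to pass (-0.64, limma adjusted p = 0.0259), while the median of the list was 0.19.

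Of 21 tested genes that control ribosomal protein synthesis, 1 rose and 1 fell, and the median was -0.04. Eif4ebp2, a translation repressor that mTOR switches off, fell from 705 and 686 to 351 and 355 (-0.98, SE 0.12, limma adjusted p = 0.0102). Deptor, an inhibitor bound to mTOR, rose from 476 and 758 to 1797 and 1451 (1.43, SE 0.24, limma adjusted p = 0.0174). Mtor itself had 2138 and 1687 against 2267 and 2030, and Larp1, which holds TOP mRNAs, 2278 and 2685 against 2328 and 2442, with overlapping groups for both. Myc, a driver of ribosome production, was low at 35 and 72 against 8 and 29, and its log2 fold change of 1.64 had an SE of 0.70 (limma adjusted p = 0.169). Calls in these lists were 0 in either direction without the filter on low counts, without the intensity trend and without either knockout replicate or wild-type replicate 1, and 1 each without wild-type replicate 2.

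The libraries also differed in genes of dividing cells and in markers of other cell types. Since a gene that passed the filter only through the group where it is high had to differ, these lists are counted over the genes with a mean of at least 10 in each group, which left out 4 cell cycle genes and 1 marker each of macrophages, lymphocytes and neurons or Schwann cells. Of all 14123 genes with such means, 1261 were called higher and 990 lower. Of 16 cell cycle genes, 11 were called higher and 0 lower, and their median was 2.14. Mki67, a marker of dividing cells, had 1785 and 2680 normalized counts against 139 and 359. Of 12 smooth muscle markers, 9 fell and 1 rose (median -0.99), and their sum was 211627 and 161705 in the knockout against 513556 and 483187. All 15 macrophage markers so counted rose (median 2.87), and the sums over the whole list of 16 were 14781 and 20231 against 1433 and 3865. Rises were also called in 2 of 12 fibroblast, 7 of 12 endothelial and 9 of 12 adipocyte markers, with 1 fall, in the adipocyte list. Summed fibroblast markers stood at 412670 and 424130 against 127917 and 269747, endothelial at 14272 and 12636 against 4961 and 7535, and adipocyte at 31115 and 30102 against 11021 and 15096. Lymphocyte markers, of which none had such a mean in both groups, summed to 98 or less in every library, and neuronal and Schwann cell markers, with 1 rise among 5, to 839 or less. No marker of any list was at 0 in all 4. The part of these shifts in the levels of the ribosomal protein genes was not tested.

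By the Euclidean distance between log2 values centred over the 4 libraries, the genes outside the family nearest to the mean profile of its 75 tested members other than the paralogs, among 11548 candidates with a mean of at least 50, were Hnrnpa3, Sltm, Edem2, Dusp11, Dcaf12 and Acat1, at distances from 0.025 to 0.032. The mean profile was -0.063 and 0.077 in the knockout, against -0.074 and 0.060 in the wild type, so that each group held 1 low and 1 high library. Hnrnpa3 had 1372 and 1517 normalized counts against 1348 and 1467. With 4 libraries, such likeness describes these values only.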

How the data were processed

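The authors deposited 1 table with a column per library, described as normalized counts. Its values are whole numbers that skip or repeat at a fixed spacing, the pattern of counts divided by a factor and then rounded. The deposited unit was therefore treated as a score (a rounded normalized count), and no count model was used. Libraries were made with a stranded kit after removal of ribosomal RNA, per the labels' protocols. The submitters' processing notes name DESeq2 1.14.1, STAR 2.5.2b, featureCounts 1.5.1 from Subread, and FastQC, without roles. The annotation and the strand and multiple-mapping settings were not given in the sources used here. The groups and columns follow the sample titles.

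Values were transformed to log2(value + 1), which understates the change of low genes, and genes whose mean reached 10 were fitted with limma 3.58.1 in R 4.3.3, with group as the single term and eBayes with an intensity trend (3.96 prior and 2 residual degrees of freedom). Two-sided p-values were adjusted over all 15058 genes (Benjamini-Hochberg). Values in parentheses after counts are log2 fold changes with limma's 95% intervals, SEs or adjusted p. TMM factors (trimmed means of log ratios) were computed from the deposited values. The fit was tested on simulated data. Depth was estimated from the spacing of the values. Alternatives were other pseudocounts, filters and scalings, no intensity trend, a replicate term and leaving out each library.

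Members and lists were chosen with earlier results of these data known, so no list was tested as a set. Named genes were the paralogs and their partners, the stalk genes, Rpl5, Rpl11, Rps6, Rps27a, Rpl10 and Rps4x, called members (up to 12 a direction), the extreme of each subunit, the 5 with the highest mean and, from each other list, up to 4 genes with the smallest p; a few others, such as Rps10, Rpl29, Mtor, Larp1, Eef1a1 and Rack1, were chosen after their values were seen. Genes were matched by symbol, older symbol or identifier, and 1 listed gene, Snhg8, was not matched. The values of 1 member are not reported here; it stays in every count, range and median. Cell cycle and cell type marker lists were counted over genes with a mean of at least 10 in each group, a choice made after their values were seen. Gene positions, overlaps and shared 50-base stretches come from GENCODE M21 (GRCm38) and start-site sequences from RefSeq.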

Additional observations from a re-analysis of the deposited data

How the results depend on the processing

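No gene at all was called without the filter on low counts (0 higher and 0 lower; 5472 genes at an unadjusted limma p under 0.05) or without the intensity trend (0 and 0; 4274), and this took the ribosomal protein calls to 0 and those in the 9 translation lists to 0 and 0. Leaving out 1 library gave 0 to 587 higher and 0 to 153 lower genes, 0 ribosomal protein genes in either direction and 0 to 1 genes in each direction in the lists. Without knockout replicate 1, knockout replicate 2 and wild-type replicate 1 the genes at an unadjusted p under 0.05 numbered 3792, 3228 and 2671. The cause was not tested. The other settings kept the counts within 1.5 times.

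The median log2 fold change of the ribosomal protein genes was 0.12 after rescaling to the same total, which took the median of all genes to 0.06, and -0.02 after quantile normalization, which took it to -0.10. It was -0.06 to 0.09 with 1 library left out, the lowest without wild-type replicate 1. The median of the lists was 0.05 and -0.12 under these scalings and -0.04 to 0.00 with 1 library left out. The summed share differed by 0.0435 percentage points after quantile normalization and by 0.0357 to 0.0864 with 1 library left out. Among all calls, 58.8% were higher and 68.2% after rescaling to the same total.

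Some of the 23 named ribosomal protein genes changed sign. Rescaling to the same total gave 0.01 for Rpl10, 0.02 for Rpl5 and 0.07 for Rps4x. Quantile normalization gave -0.02 for Rpl11, -0.12 for Rpl39, 0.03 for Rps4x and -0.02 for Rps4y2. With 1 library left out, the ranges that crossed 0 were -0.21 to 0.53 for Rpl11, -0.02 to 0.23 for Rpl13a, -0.05 to 0.34 for Rpl26, -0.35 to 0.39 for Rpl39, -0.19 to 0.06 for Rpl5, -0.04 to 0.06 for Rps27a and -0.08 to 0.05 for Rps4x. Rpl22, at 0.00, ran from -0.12 to 0.12.

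The labels do not say what the replicate numbers mark. The differences of replicate 2 from replicate 1 in the 2 groups correlated at 0.12 over all genes and -0.08 over the ribosomal protein genes. A correlation over genes cannot show a shift that the whole family shares. The mean profile of the family was low in both replicate 1 libraries (-0.063 in the knockout, -0.074 in the wild type). It was high in both replicate 2 libraries (0.077 and 0.060). With the replicate block, 1823 genes were higher and 1213 lower, with 1 ribosomal protein gene higher and 0 lower and an adjusted p of 0.0467 for Rplp0. Depth limits the low genes: at mean normalized counts of 13.8 and 31, the 95% intervals of Rps28 (-1.13 to 1.65) and Rpl37 (-1.69 to 0.94) reach past 2-fold.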

Other observations

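Several ribosomal protein genes are in wide use as reference genes for quantitative PCR, and their values are given here as chosen after the data were seen. Rplp0 had a log2 fold change of 0.40 (95% interval 0.16 to 0.64) in the knockout. Rpl13a had one of 0.10 (-0.22 to 0.43), Rps18 one of 0.09 (-0.58 to 0.76), from 268 and 471 normalized counts against 322 and 346, and Rpl19 one of 0.06 (-0.29 to 0.42), from 1037 and 1232 against 988 and 1183. Of these 4, Rplp0 was the one whose interval left out 0. Among the intervals that held 0, that of Rps18 was the widest.

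A gene that carries the name of a ribosomal protein in the table is another gene by its identifier. The row named Rpl24 (identifier of Zbtb11, chromosome 16) had 749 and 642 normalized counts in the knockout, against 782 and 792 in the wild type. The identifier of Rpl24 itself stands in a row spelled RPL24, outside the name pattern, with 10 and 3 against 15 and 4. If the identifiers hold, anyone reading the table by name alone would take the level of one for the other.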
